A study of Mus musculus with 5 samples.

Results

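The genes described here encode the proteins of the mitochondrial ribosome, named Mrpl (large subunit) and Mrps (small subunit), measured by RNA sequencing in mouse kidney. They were chosen by symbol alone: every gene ID whose GENCODE M21 symbol is Mrpl or Mrps followed by a number, leaving out the pseudogenes, with at least 10 counts over the 5 libraries. This gave 77 genes of the 54532 gene IDs in the table. The DMXAA group was 2 kidney libraries from wild-type male C57BL/6J mice aged 8 weeks that were injected intraperitoneally with DMXAA at 10 mg/kg each day for 3 days. The vehicle group was 3 kidney libraries from the same strain, genotype, sex and age, given vehicle injections on the same schedule, and all tissue was taken on day 3. DMXAA is a small molecule that activates the mouse STING protein, which relays the sensing of cytosolic DNA to interferon genes. The whole kidney was sampled, so less RNA per cell and fewer cells of a type cannot be told apart, and the labels do not say that each library came from a separate mouse.

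Mitochondria keep a small genome of their own and translate its messages, all of which code for core subunits of the respiratory chain or of ATP synthase, on a dedicated ribosome. The RNA parts of that ribosome are transcribed inside the organelle, while all its proteins are encoded in the nucleus, made in the cytosol and imported. Part of the proteins descend from bacterial ribosomal proteins and part were added during the evolution of mitochondria. The kidney, and its proximal tubule above all, is rich in mitochondria because salt and solute reabsorption consume much ATP.

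In the DMXAA kidneys the transcripts of the mitochondrial ribosome stayed close to their vehicle levels. The median log2 fold change, DMXAA over vehicle, was -0.03 over the 77 genes, with 30 estimates above 0 and 47 below, and the direction of this median turned with the processing (0.01 once length and GC content of the transcripts were fitted as an offset, 0.05 without vehicle replicate 2). The estimates ran from -0.27 (Mrps16) to 0.35 (Mrpl27). With edgeR's quasi-likelihood test, adjusted over all 16226 genes tested, 0 of the 77 passed 0.05, as did 0% of all genes tested. At an unadjusted p below 0.05 there was 1 gene lower, Mrps16, where 2.65% of all genes tested were, and 1 gene higher, Mrpl27, where 3.89% were. DESeq2 called 0.389% of the genes to which it gave an adjusted p, and 0 of the 77.

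The precision of these near-zero values can be stated. The 95% interval of the fold change, from the same fit and not adjusted for the number of genes, lay within 2-fold in either direction for 77 of the 77 genes and within 1.5-fold for 73. The exceptions to the narrower bound were Mrpl27, Mrpl47, Mrps18b and Mrpl36. All 77 genes passed the expression filter, with 1318 to 10602 counts each over the 5 libraries, so none was tested on a handful of reads.

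**Figure D1:**
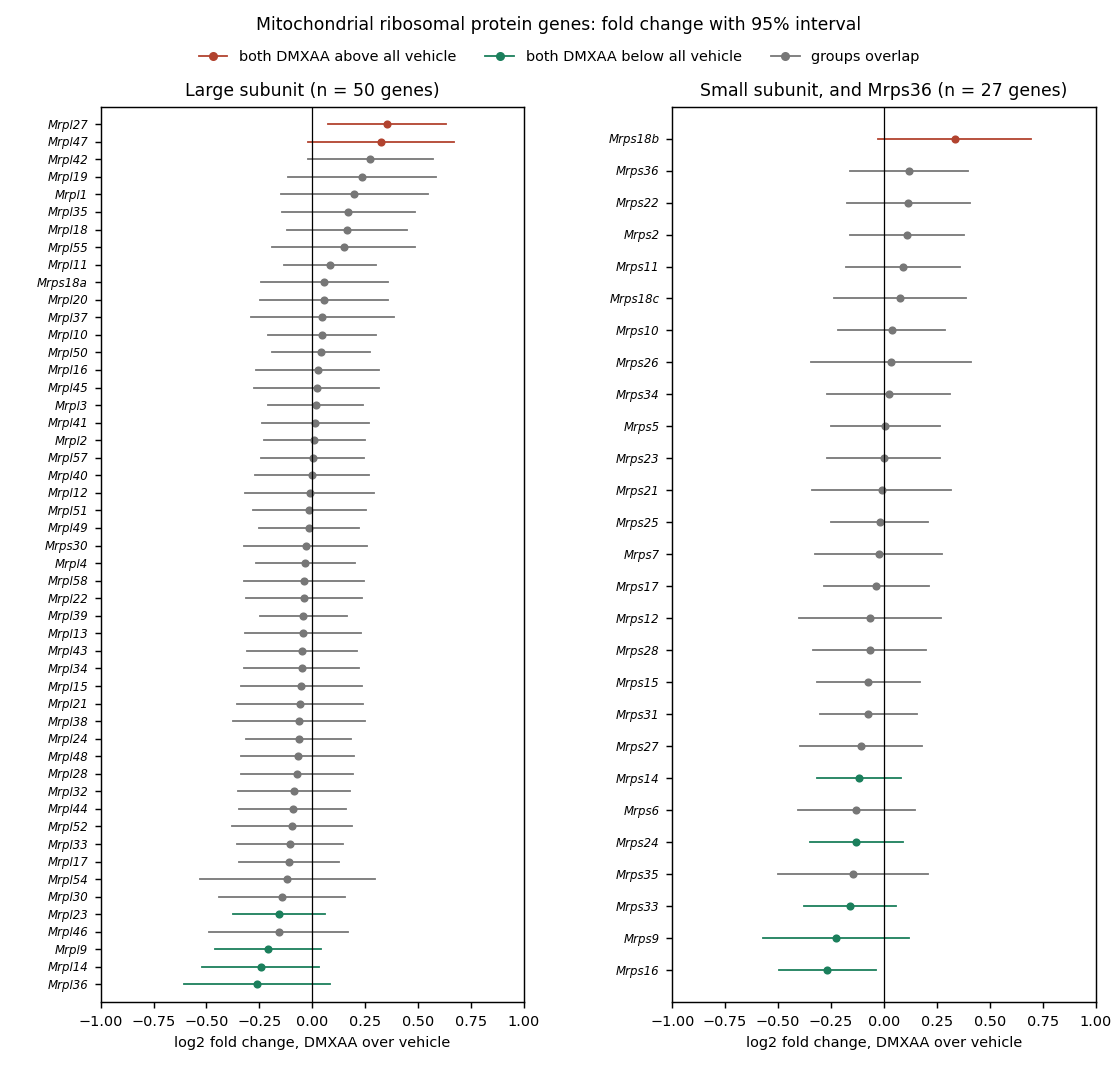
Log2 fold change (x axis, DMXAA over vehicle) of each of the 77 genes, with bars for the 95% interval, by ribosomal subunit and ordered by value. The points run from -0.27 for Mrps16 to 0.35 for Mrpl27, and most bars cross 0.

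Promoters of these genes are shown for Mrps16, the gene with the smallest p among those lower, and for Mrpl9, Mrpl10, Mrpl22 and Mrpl43, which show matches of NRF1 and ETS motifs. The motifs counted are those of nuclear factors known for regulating mitochondrial genes: GCATGCG for NRF1, CCGGAAG for the ETS factors such as GABPA, and ATGGCGG for YY1, each searched on both strands, so that an NRF1 site with its palindrome can match at overlapping positions. Sequences are RefSeq's, from GRCm38.p6, written on the gene's strand before the transcription start, with exonic bases of any annotated gene left out. Capitals mark motif matches. They lie at chr14:20393635-20393884 (minus strand, Mrps16), chr3:94443086-94443317 (plus strand, Mrpl9), chr11:97041408-97041559 (plus strand, Mrpl10), chr11:58171414-58171660 (plus strand, Mrpl22) and chr19:45006443-45006557 (minus strand, Mrpl43).
Mrps16: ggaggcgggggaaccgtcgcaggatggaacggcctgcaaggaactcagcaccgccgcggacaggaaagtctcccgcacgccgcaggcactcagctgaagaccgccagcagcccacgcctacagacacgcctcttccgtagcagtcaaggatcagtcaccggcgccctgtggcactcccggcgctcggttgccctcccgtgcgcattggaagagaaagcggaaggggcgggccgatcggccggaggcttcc
Mrpl9: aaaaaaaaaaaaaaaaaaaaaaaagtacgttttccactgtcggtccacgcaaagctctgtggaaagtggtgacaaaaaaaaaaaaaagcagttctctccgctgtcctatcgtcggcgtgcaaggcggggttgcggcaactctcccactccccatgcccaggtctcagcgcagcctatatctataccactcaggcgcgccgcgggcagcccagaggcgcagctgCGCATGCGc
Mrpl10: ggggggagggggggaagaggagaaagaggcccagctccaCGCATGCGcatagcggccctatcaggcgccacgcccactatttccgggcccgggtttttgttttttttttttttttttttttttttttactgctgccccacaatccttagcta
Mrpl22: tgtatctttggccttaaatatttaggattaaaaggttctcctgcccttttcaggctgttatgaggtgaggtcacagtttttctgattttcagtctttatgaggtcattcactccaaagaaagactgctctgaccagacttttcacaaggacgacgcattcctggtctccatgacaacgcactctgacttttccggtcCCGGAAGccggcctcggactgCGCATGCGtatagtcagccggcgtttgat
Mrpl43: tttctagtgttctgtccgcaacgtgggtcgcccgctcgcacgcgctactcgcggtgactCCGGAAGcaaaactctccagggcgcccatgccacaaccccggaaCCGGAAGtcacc

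A promoter was found in the RefSeq table for 68 of the 77 genes. Over the full window, from 250 bases before to 50 after the start, the ETS motif was in 23 of the 68 (33.8%) and in 16.9% of the promoters of all genes tested. The YY1 motif was in 12 (17.6%), against 7.58% of all, and the NRF1 motif in 8 (11.8%), against 6% of all. At least 1 of the motifs was in 34 of the 68 (50%) and in 27% of all promoters. These are letter matches in fixed windows and were not tested. No match was found in the window of Mrps16, while the Mrpl22 window held all 3 motifs, with the ETS match at -53 and the first NRF1 match at -32 from the start. The YY1 matches of Mrpl22, at 22, and of Mrpl9, at 15, lie inside the transcript and so not in the printed stretches.

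The genes also often started near the start of another gene. Only distance and strand were counted, so pairs of genes that overlap are included, and whether any pair shares a promoter was not tested. Of the 77, 33 (42.9%) had the start of a protein-coding gene on the opposite strand within 1000 bases of their own, as had 15% of the 14021 protein-coding genes tested. A few partners are themselves mitochondrial. The start of Mrps12 lies 172 bases from that of Sars2, the mitochondrial seryl-tRNA synthetase. The starts of Mrpl43 and Twnk, the helicase of mitochondrial DNA, lie 779 bases apart, and the genes overlap, with 507 shared exonic bases. Those of Mrpl36 and Ndufs6, a subunit of respiratory complex I, lie 29 bases apart, with 30 shared exonic bases. Mrpl46 and Mrps11, both in the set, start 412 bases apart on chromosome 7 and share 173 exonic bases, and their log2 fold changes were -0.16 and 0.09. The genes were spread over 17 chromosomes, with 11 on chromosome 11 and 8 on chromosome 17.

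Expression of the large subunit is described first, by level. Levels were compared between genes as TPM, which scales counts by the union of a gene's exons. They spanned 33.8-fold, from 8.64 TPM for Mrps30 to 292 TPM for Mrps21 (means of the 5 libraries), and these levels were not tested against each other. TPM fell with exon length (Spearman -0.86 across the 77 genes, which share the libraries and the length used in the scaling), and whether annotated exons not used in kidney set part of this order was not tested. Median TPM was 57.9 over the 50 genes whose products are built into the large subunit and 34.9 over the 26 of the small subunit.

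Mrpl34, a short protein of the bacterial core, had 263 and 293 TPM in the DMXAA libraries, against 276, 290 and 271 TPM in the vehicle libraries. Mrpl12, part of the stalk that recruits translation factors and also a binding partner of the mitochondrial RNA polymerase, had 192 and 213 TPM in DMXAA and 196, 212 and 185 TPM in vehicle. Mrpl2, at the catalytic core, had 156 and 156 TPM in DMXAA and 150, 153 and 148 TPM in vehicle. The groups of Mrpl34 and Mrpl12 overlapped, and those of Mrpl2 were apart in TPM but overlapped in CPM.

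At the low end, Mrps30 had 9.0 and 8.39 TPM in DMXAA and 8.47, 8.82 and 8.53 TPM in vehicle. Its product sits in the large subunit, despite the name. Mrpl33 had 8.92 and 9.36 TPM in DMXAA and 10.0, 9.54 and 9.10 TPM in vehicle, and the small subunit gene Mrps10 had 10.5 and 10.5 TPM in DMXAA and 10.3, 10.1 and 9.41 TPM in vehicle. Mrpl19 had 10.0 and 13.5 TPM in DMXAA and 10.0, 9.69 and 9.42 TPM in vehicle. These low genes lie next to each other in the order, and their ranges over libraries overlap, except that Mrps30 stayed below Mrps10 and Mrpl19 in every library.

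**Figure D2:**
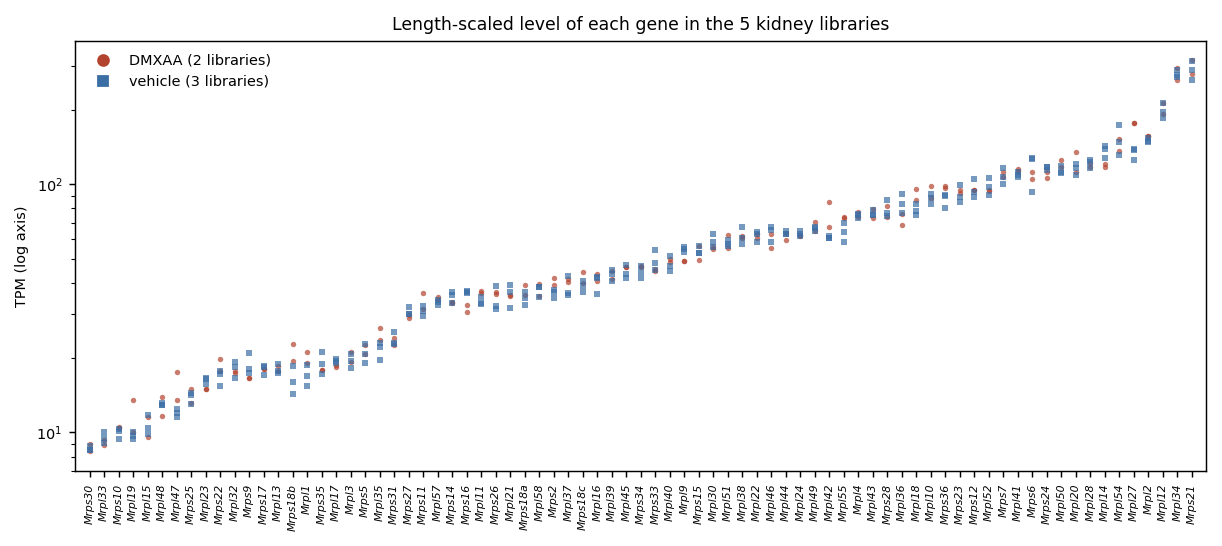
Level of each of the 77 genes (y axis, TPM on a log axis) in the 2 DMXAA and 3 vehicle libraries, with genes ordered by their mean. The order runs from Mrps30 at 8.64 TPM to Mrps21 at 292 TPM, and the points of the groups intermix for most genes.

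From here on values are TMM-normalised CPM, which compare 1 gene between libraries. Among large subunit genes with a bacterial counterpart, Mrpl27, which reaches toward the peptidyl transferase centre in bacteria, had 64.9 and 63.4 CPM in DMXAA and 44.1, 55.9 and 50.6 CPM in vehicle. Both DMXAA libraries lay above all vehicle libraries, and the log2 fold change was 0.35 (SE 0.12, edgeR adjusted p = 0.736). The gene, ENSMUSG00000024414, spans chromosome 11 from 94653767 to 94660089 on mm10 and shares exonic bases with Eme1 on the other strand.

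Mrpl47, a protein at the exit of the nascent chain tunnel, had 22.1 and 28.4 CPM in DMXAA and 18.3, 21.7 and 20.5 CPM in vehicle. Its groups did not overlap, by a narrow margin, and the log2 fold change was 0.32 (SE 0.14, edgeR adjusted p = 0.741), with 0.14 without DMXAA replicate 2 and 0.50 without DMXAA replicate 1. Of its 4419 exonic bases Mrpl47 shares 616 with Ndufb5 and 452 with Actl6a, both on the opposite strand. Reads within those shared bases are not separable without strand information.

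In the other direction, Mrpl14 had 42.5 and 40.8 CPM in DMXAA and 47.1, 55.6 and 45.3 CPM in vehicle. Mrpl36, the counterpart of a very small bacterial protein, had 32.7 and 29.1 CPM in DMXAA and 34.5, 43.5 and 33.1 CPM in vehicle. Mrpl9 had 49.2 and 48.4 CPM in DMXAA and 51.8, 62.0 and 55.1 CPM in vehicle. In each of these 3 genes both DMXAA libraries lay below all vehicle libraries, vehicle replicate 2 was the highest library, and the gap between the groups was small beside the spread within vehicle. Their log2 fold changes were -0.24 (SE 0.12), -0.26 (SE 0.14) and -0.21 (SE 0.11), with edgeR adjusted p of 0.749, 0.758 and 0.750. Without vehicle replicate 2 they were -0.15 for Mrpl14, -0.13 for Mrpl36 and -0.13 for Mrpl9. With the length and GC offset Mrpl14 was at -0.10.

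The groups of the stalk genes overlapped. Mrpl12 averaged 114 ± 7.31 CPM in DMXAA and 115 ± 15.3 CPM in vehicle (SD, n = 2 and 3). Mrpl10, which anchors Mrpl12 to the ribosome, averaged 58.6 ± 5.45 CPM in DMXAA and 56.8 ± 4.23 CPM in vehicle. Mrpl11, at the base of the stalk, averaged 43.9 ± 0.102 CPM in DMXAA and 41.4 ± 2.26 CPM in vehicle. For Mrpl53, a protein near the stalk, the table listed 0 counts in all 5 libraries. Mrpl53 shares 695 of its 790 exonic bases with Gm42688 on the same strand, and whether its reads were assigned elsewhere was not tested.

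Among large subunit proteins classed as specific to mitochondria, Mrpl42 had 92.6 and 115 CPM in DMXAA and 80.3, 93.7 and 83.2 CPM in vehicle. DMXAA replicate 2 was the high library and the groups overlapped, with a log2 fold change of 0.27 (SE 0.12, edgeR adjusted p = 0.741). It was 0.43 without DMXAA replicate 1 and 0.11 without DMXAA replicate 2. Mrpl45, which docks the ribosome at the inner membrane, averaged 44.4 ± 0.350 CPM in DMXAA and 43.8 ± 5.82 CPM in vehicle, and Mrpl44, related to ribonuclease III, averaged 37.4 ± 1.23 CPM in DMXAA and 39.9 ± 3.56 CPM in vehicle. Mrpl58, a peptidyl-tRNA hydrolase that is also built into the ribosome, averaged 46.2 ± 2.97 CPM in DMXAA and 47.4 ± 5.30 CPM in vehicle. Mrpl54 had the largest spread within vehicle on the log2 scale (SD of log2 CPM 0.29), with 41.7 and 46.1 CPM in DMXAA and 38.9, 58.4 and 45.6 CPM in vehicle. The vehicle libraries of Mrpl54 thus spanned the DMXAA libraries on both sides.

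In the small subunit the gene with the smallest p was Mrps16, a protein with a bacterial counterpart whose human gene is mutated in an inherited defect of the respiratory chain. It had 32.7 and 34.2 CPM in DMXAA and 38.4, 43.1 and 39.4 CPM in vehicle, so both DMXAA libraries lay below all vehicle libraries. The log2 fold change was -0.27 (SE 0.10, edgeR adjusted p = 0.741) and ran from -0.31 to -0.21 when single libraries were left out. Mrps16 is ENSMUSG00000049960, on chromosome 14 from 20389304 to 20393634, and shares no exonic base with another annotated gene.

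Mrps9 had 35.5 and 35.1 CPM in DMXAA and 37.3, 49.2 and 37.3 CPM in vehicle, with vehicle replicate 2 far above the others. Its log2 fold change was -0.23 (SE 0.14, edgeR adjusted p = 0.779), and -0.08 without vehicle replicate 2. Mrps12, a protein of the decoding centre, averaged 36.4 ± 0.508 CPM in DMXAA and 38.1 ± 6.05 CPM in vehicle. Mrps21, the gene with the highest mean TPM (277 and 316 TPM in DMXAA, 289, 314 and 264 TPM in vehicle), averaged 80.8 ± 6.52 CPM in DMXAA and 81.4 ± 12.1 CPM in vehicle. Mrps26, specific to mitochondria, had 58.4 and 58.5 CPM in DMXAA and 49.0, 69.9 and 52.6 CPM in vehicle. Mrps35, likewise specific, had 57.3 and 56.5 CPM in DMXAA and 53.3, 74.9 and 60.7 CPM in vehicle. In both genes the DMXAA libraries lay within the wide vehicle range.

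The Mrps18 family has 3 genes whose products go to different places: Mrps18c replaces the bacterial protein in the small subunit, Mrps18b is also in the small subunit, and Mrps18a belongs to the large subunit. Mrps18b had 15.1 and 17.4 CPM in DMXAA and 13.8, 13.6 and 11.1 CPM in vehicle, without overlap, and a log2 fold change of 0.33 (SE 0.15, edgeR adjusted p = 0.742). Mrps18c had 17.8 and 15.8 CPM in DMXAA and 15.7, 17.2 and 14.8 CPM in vehicle, and Mrps18a averaged 50.9 ± 2.82 CPM in DMXAA and 49.0 ± 6.31 CPM in vehicle, so the groups of both overlapped. Mrps18b shares 638 exonic bases with the antisense gene Gm16279. Mrps36, which carries a ribosomal name but encodes a subunit of the 2-oxoglutarate dehydrogenase complex, had 45.7 and 45.7 CPM in DMXAA and 40.8, 47.5 and 37.9 CPM in vehicle.

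Over the classes, the median log2 fold change was -0.03 for the 50 large subunit genes, with 30 below 0, and -0.03 for the 26 small subunit genes, with 17 below 0. For the 46 genes classed as having a bacterial counterpart it was -0.04, and for the 30 classed as specific to mitochondria -0.02. The split is approximate: Mrpl55 was counted with the first class, and Mrps18a and Mrps18b, relatives of Mrps18c, with the second. Groups did not overlap, with DMXAA lower, for 9 of the 77 genes (11.7%), where 12.3% of all genes tested had such groups. Beside Mrps16, Mrps9, Mrpl9, Mrpl14 and Mrpl36 these were Mrpl23, Mrps14, Mrps24 and Mrps33. With DMXAA higher this held for 3 genes (3.9%), namely Mrpl27, Mrpl47 and Mrps18b, against 13.7% of all genes tested. Whether that smaller share sets the genes apart was not tested.

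The spread of the fold changes was set beside that of other genes, without a test. The interquartile range of the log2 fold changes was 0.13 over the 77 genes and 0.21 over the 7173 tested genes whose mean CPM lay in the same range of 14.2 to 115 CPM. An absolute log2 fold change below 0.2 was found for 67 of the 77 (87.0%), against 78.1% of those genes. The interquartile range of the 77 genes was wider in some other fits, at 0.18 with the length and GC offset and 0.15 without vehicle replicate 2. That of the 7173 genes was not computed in those fits. A narrow band was not particular to the set: the quartiles of the log2 fold change were -0.09 and 0.04 for the 77 genes and -0.22 and -0.11 for the cytosolic ribosomal proteins. The spread within vehicle was no smaller, with a median SD of log2 CPM of 0.14 for the 77 genes and 0.13 for the genes in the same range.

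**Figure D3:**
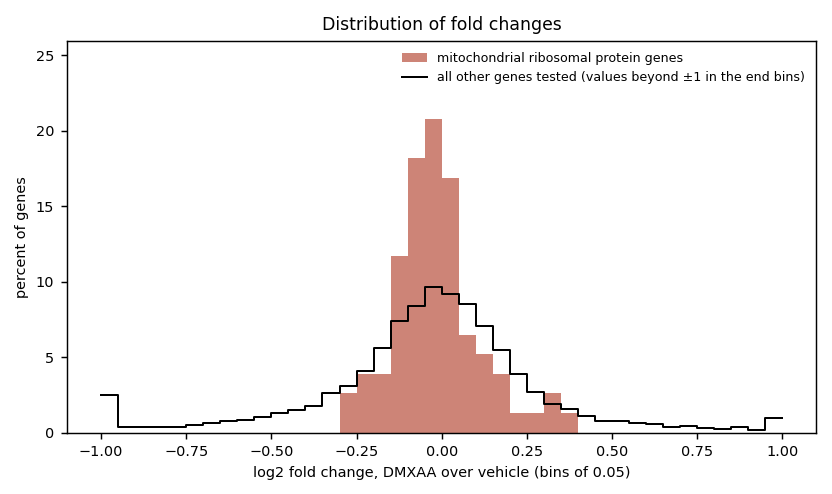
Percent of genes (y axis) in bins of log2 fold change, DMXAA over vehicle (x axis), for the 77 genes (bars) and for all other genes tested (line). The bars gather between -0.27 and 0.35, while the line reaches beyond both ends.

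Most of the genes had their highest level in the same library, a vehicle one. Relative to each gene's mean over the 5 libraries, the median log2 level was -0.04 and 0.01 in the DMXAA libraries, against -0.08, 0.15 and -0.05 in vehicle replicates 1, 2 and 3. Vehicle replicate 2 was the highest library for 57 of the 77 genes, and vehicle replicate 1 the lowest for 30. Summed over the genes, the set took 0.343% and 0.357% of all counts in DMXAA and 0.349%, 0.374% and 0.348% in vehicle. In their median level both DMXAA libraries lay between the vehicle libraries. By share of counts DMXAA replicate 2 did too, while DMXAA replicate 1 lay below all vehicle libraries.

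**Figure D4:**
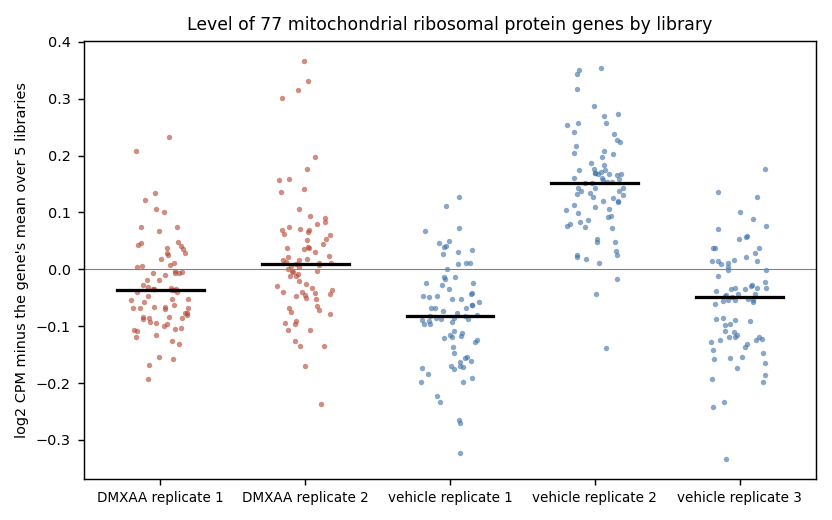
Log2 CPM of each of the 77 genes minus its mean over the 5 libraries (y axis), by library, with the median as a bar. The median is 0.15 in vehicle replicate 2 and between -0.08 and 0.01 in the other 4 libraries.

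Without vehicle replicate 2 the median log2 fold change was 0.05, with 26 genes below 0 and 51 above. At an unadjusted p below 0.05 there were then 10 genes higher, where 6.73% of all genes tested were, and 2 lower, Mrps16 and Mrps6, where 5.08% were. The smallest p was that of Mrpl27, at a log2 fold change of 0.44 (SE 0.10, edgeR adjusted p = 0.342). The others that were higher, named after their values were seen, included Mrpl1 (0.33), Mrpl35 (0.28) and Mrpl18 (0.27). None of the 77 passed the adjusted test without it either, and edgeR called 0 genes of the whole table in that fit.

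The levels in vehicle replicate 2 also went with transcript length. In the other genes tested with an average log2 CPM above 1, the median level relative to the gene's mean was -0.07 and -0.05 in the DMXAA libraries for transcripts of up to 1000 bases, against -0.06, 0.17 and 0.02 in vehicle replicates 1, 2 and 3. Above 8000 bases it was 0.06 and 0.07 in the DMXAA libraries, against 0.05, -0.16 and 0.005 in the vehicle libraries. The transcripts of the mitochondrial ribosome are short, with a median of 1884 bases for the longest transcript, against 3341 bases for tested genes above an average log2 CPM of 1, and 40 of the 77 are at or under 2000 bases. Up to 1000 bases the median log2 fold change was -0.05 for 16 genes of the set and -0.10 for 774 others. From there to 2000 bases it was -0.05 for 24 genes of the set and -0.07 for 2110 others. In the class up to 4000 bases it was 0.01 for 26 genes of the set and -0.01 for 5306 others, and in that up to 8000 bases -0.04 for 11 genes of the set and 0.03 for 4194 others. The sign of the set was thus that of the other genes in the shorter classes and the opposite in the longer ones. The part of transcript length in the level of vehicle replicate 2 was not tested.

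**Figure D5:**
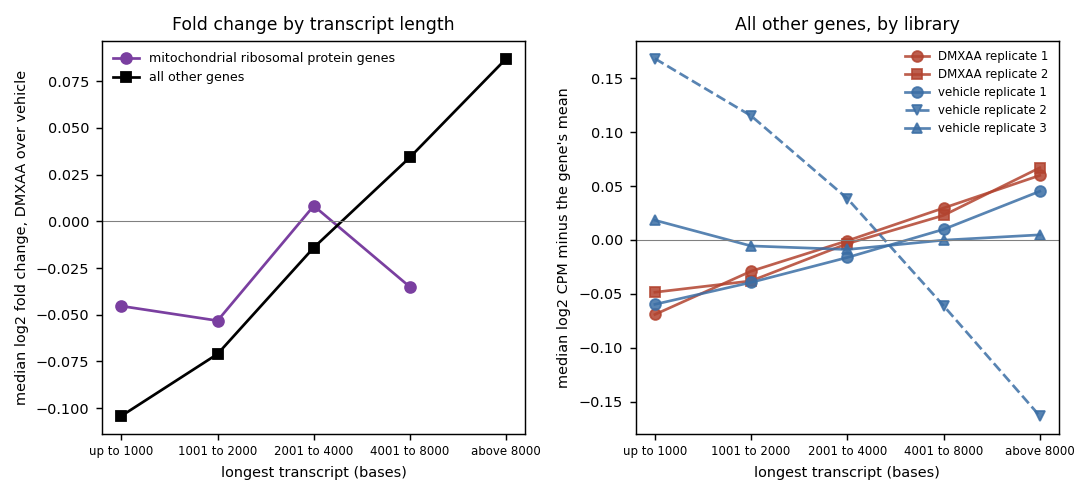
Left, median log2 fold change (y axis, DMXAA over vehicle) by length of the longest transcript (x axis) for the 77 genes and all other genes with an average log2 CPM above 1. Right, the median level of the other genes in each library, which falls with length in vehicle replicate 2, from 0.17 to -0.16.

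Tissue makeup differed between the vehicle libraries as well. Defining kidney markers were abundant in every library, with 12 proximal tubule genes at a summed 25800 and 25000 CPM in DMXAA and 25400, 27500 and 19100 CPM in vehicle replicates 1, 2 and 3. The 7 adipocyte markers summed to 47.6 and 55.5 CPM in DMXAA and to 675, 27.7 and 50.3 CPM in vehicle, and the 8 urothelial markers to 11.5 and 7.46 CPM in DMXAA and to 143, 2.79 and 19.8 CPM in vehicle. The 7 leukocyte markers summed to 1220 and 682 CPM in DMXAA and to 596, 1390 and 1440 CPM in vehicle, and every listed marker was detected. The 6 red blood cell markers summed to 112 and 95.1 CPM in DMXAA and to 344, 244 and 169 CPM in vehicle. The 8 collecting duct markers summed to 636 and 696 CPM in DMXAA and to 1160, 707 and 726 CPM in vehicle. For both of these lists, which share Slc4a1, the DMXAA libraries lay below all vehicle libraries. On every other list, podocyte and distal tubule included, the groups overlapped. The part of these tissues in the levels of the mitochondrial ribosome was not tested. Without vehicle replicate 1 the median log2 fold change of the set was -0.07, with 57 of 77 genes below 0.

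Some proteins of the mitochondrial ribosome carry other names. Of 5 such genes, 3 had estimates below 0, where 53.1% of all genes tested had. At an unadjusted p below 0.05 there was 1 lower, where 2.65% of all genes tested were. That was Aurkaip1, a small subunit protein, with 65.9 and 62.7 CPM in DMXAA and 72.8, 88.3 and 74.0 CPM in vehicle (log2 fold change -0.29, SE 0.11, edgeR adjusted p = 0.741). Ptcd3, at the entry of the mRNA channel, had 45.2 and 48.4 CPM in DMXAA and 42.2, 44.3 and 38.6 CPM in vehicle. Dap3, a GTP-binding small subunit protein also known for a role in cell death, had 62.3 and 64.7 CPM in DMXAA and 71.1, 74.1 and 61.4 CPM in vehicle.

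The rRNAs on which these proteins assemble are encoded by mitochondrial DNA. The large subunit rRNA mt-Rnr2 had 834 and 737 CPM in DMXAA and 934, 1073 and 1196 CPM in vehicle, and both DMXAA libraries lay below all vehicle libraries (log2 fold change -0.44, SE 0.15, edgeR adjusted p = 0.740). The small subunit rRNA mt-Rnr1 had 607 and 515 CPM in DMXAA and 573, 717 and 658 CPM in vehicle, and its groups overlapped. Of the 13 protein messages that this ribosome translates, 13 had estimates below 0, where 53.1% of all genes tested had. Their median log2 fold change was -0.20. At an unadjusted p below 0.05 there was 1 lower, where 2.65% of all genes tested were. That was mt-Atp6, a subunit of ATP synthase, with 80.2 and 68.2 CPM in DMXAA and 263, 128 and 196 CPM in vehicle. Its log2 fold change was -1.40 (SE 0.29, edgeR adjusted p = 0.629), and DESeq2 called it, at an adjusted p of 0.000313, as the 1 call among the 13. The 13 messages summed to 86034.6 and 77160.2 CPM in DMXAA and 87821.8, 92625.2 and 95692.2 CPM in vehicle. Reads counted for mt-Atp6 were thus a small part of that sum. The handling of multi-mapping reads was not given, and whether reads of mt-Atp6 were dropped or assigned elsewhere was not tested. How much of the RNAs encoded by mitochondrial DNA a library captures depends on its preparation, which was not tested.

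Genes that build and run the mitochondrial ribosome showed no adjusted call. Among 25 assembly factors and rRNA-modifying enzymes the median log2 fold change was -0.07. At an unadjusted p below 0.05, 1 was lower and 0 higher, where 2.65% of all genes tested were lower and 3.89% higher. The lower gene, the assembly factor Rcc1l, had 22.4 and 20.5 CPM in DMXAA and 26.5, 27.4 and 24.8 CPM in vehicle. Among 14 translation factors, 10 had estimates above 0 and 4 (28.6%) below, where 53.1% of all genes tested were below. At the same unadjusted threshold 1 was higher and 0 lower. The higher gene, the recycling factor Gfm2, had 76.1 and 76.5 CPM in DMXAA and 65.7, 68.4 and 63.8 CPM in vehicle. The elongation factor Gfm1 had 140 and 144 CPM in DMXAA and 120, 138 and 124 CPM in vehicle. The groups of Gfm2 and Gfm1 did not overlap. Of the 14 translation factors, 4 (28.6%) had such groups with DMXAA higher, where 13.7% of all genes tested had. With DMXAA lower it was 1 (7.14%), where 12.3% of all genes tested had such groups.

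Among 20 mitochondrial aminoacyl-tRNA synthetase and amidotransferase genes the median was 0.001. At an unadjusted p below 0.05, 1 was higher and 0 lower, where 3.89% of all genes tested were higher and 2.65% lower. Qrsl1, a subunit of the glutamyl-tRNA amidotransferase, had 19.6 and 20.7 CPM in DMXAA and 15.5, 17.5 and 15.6 CPM in vehicle, while its partner subunit Gatb had 61.7 and 56.0 CPM in DMXAA and 64.6, 80.0 and 67.8 CPM in vehicle. Both genes had groups that did not overlap, in opposite directions. Of the 20 genes, 3 (15%) had such groups with DMXAA higher, where 13.7% of all genes tested had. With DMXAA lower it was 4 (20%), where 12.3% of all genes tested had such groups.

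Of 11 genes for mitochondrial DNA transcription and maintenance 0 passed an unadjusted 0.05, and the RNA polymerase Polrmt, the partner of Mrpl12, had 38.2 and 44.8 CPM in DMXAA and 35.1, 38.8 and 38.4 CPM in vehicle. Of 10 nuclear regulators of mitochondrial biogenesis, 1 was higher and 1 lower at that threshold, where 3.89% of all genes tested were higher and 2.65% lower. The coactivator gene Ppargc1a had 117 and 131 CPM in DMXAA and 96.7, 93.4 and 109 CPM in vehicle (log2 fold change 0.31, SE 0.11, edgeR adjusted p = 0.740). Myc, a driver of ribosome production, had 4.16 and 4.63 CPM in DMXAA and 7.19, 5.63 and 8.6 CPM in vehicle (log2 fold change -0.70, SE 0.24, edgeR adjusted p = 0.740). Nrf1, whose motif was counted in the promoters, had 18.3 and 19.6 CPM in DMXAA and 19.0, 21.5 and 20.2 CPM in vehicle, and its groups overlapped.

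The gene groups most like the set are the proteins of the cytosolic ribosome and of the respiratory chain, counted here together with ATP synthase. Of the 77 genes 61% had estimates below 0, against 91.4% of 81 cytosolic ribosomal protein genes, 74.1% of 85 nuclear-encoded subunits of the respiratory chain and 53.1% of all genes tested. The median log2 fold change was -0.03 for the mitochondrial set, -0.18 for the cytosolic set, -0.06 for the respiratory chain subunits and -0.01 for all genes tested. The cytosolic genes had a median longest transcript of 1106 bases and the respiratory chain subunits one of 1046 bases, both shorter than the mitochondrial set. DESeq2 called 1 of the cytosolic genes and 0 of the respiratory chain subunits. The differences between these medians were not tested, and all rest on the same libraries.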

How the data were processed

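RNA from kidneys of 2 DMXAA and 3 vehicle samples was sequenced. The authors deposited 1 table of raw counts, with a row per Ensembl gene ID and a column per library. The submitters' processing notes name mm10 and the tools HISAT2, Subread, featureCounts and DESeq2 1.16.1. Annotation, strand setting and handling of multi-mapping reads were not given there. Reads in exonic bases shared by overlapping genes (32 of the 77 genes share some with another) thus cannot be told apart. The labels name 2 library kits without saying which was used for which library. The column names CO and XA with a number were read as vehicle and DMXAA replicates.

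Libraries held 17667490 to 20264228 counts, so 3 counts correspond to 0.148 to 0.170 CPM (counting error only). Every pair of libraries differed by more than sampling noise (chi-square over its degrees of freedom, 7.35 to 38.5). GENCODE M21 gave symbols, coordinates, lengths and GC content.

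Genes were tested two-sided by quasi-likelihood with edgeR 4.0.16 (R 4.3.3) after TMM scaling and filterByExpr, with group as the only term and Benjamini-Hochberg adjustment over 16226 genes. SE is the absolute log2 fold change over the square root of F. P-values measure the spread between these samples, which may be technical. The alternatives were DESeq2 1.42.0, other scaling, filters and dispersion settings, a length and GC offset, a replicate block, and fits without each library in turn. The procedure was checked on simulated counts. The genes and lists were chosen with earlier results of these data known. Genes named by rule were those with the 8 smallest p, the 4 largest changes each way, the 4 highest and 4 lowest TPM, the 3 widest vehicle groups, and 12 by role.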

Additional observations from a re-analysis of the deposited data

How the results depend on the processing

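None of the 77 genes passed an adjusted p of 0.05 in edgeR or DESeq2 under any of the 14 alternatives. Their median log2 fold change kept within 0.10, the SD between libraries of a group, of its main value, and ran from -0.0695 to 0.0479 when single libraries were left out. It was 0.00834 with the length and GC offset. The number of genes below 0 ran from 26 to 57 when single libraries were left out, and 26 was reached without vehicle replicate 2. The number at an unadjusted p below 0.05 was 2 in all libraries. It was 12 without vehicle replicate 2, where 5.08% of all genes tested were lower and 6.73% higher. Without vehicle replicate 1 it was 4, where 4.64% of all genes tested were lower and 4.98% higher. It was also 4 without an expression filter, where 2.94% of all genes were lower and 2.78% higher. With DESeq2 it was 1, where 1.38% of all genes were lower and 2.16% higher. With the length and GC offset 1 gene of the set was lower and 2 were higher, where 2.67% of all genes tested were lower and 3.77% higher. Over the whole table, 0 genes were called by edgeR (1062 at an unadjusted p below 0.05), 54 by DESeq2, 34 without an expression filter and 0 to 2 when single libraries were left out. With the replicate number as a block, 4 genes were called, and 4 with the block and the length and GC offset together. In either fit 1 of the 77 had an unadjusted p below 0.05, and it was higher. With the block 1.73% of all genes tested were lower and 3.14% higher at that threshold. With the block and offset 1.94% were lower and 3.36% higher. The labels give only 2 shared numbers and do not say what they mark, so the numbers were not taken as pairs. Deviations of same-numbered libraries from their group means correlated at 0.07 and 0.08. With 2 DMXAA libraries these deviations mirror each other, so the correlations cannot decide whether the libraries are paired.

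Of the 29 genes named by rule, 15 kept their sign under every alternative, and the largest absolute value among changed signs was 0.12. The log2 fold changes that turned were, with the replicate block, -0.000682 for Mrpl10, -0.0135 for Mrpl2, -0.0268 for Mrpl45, -0.0126 for Mrps10 and -0.0034 for Mrps26. With the length and GC offset they were 0.0667 for Mrpl12, 0.0929 for Mrpl34, 0.0475 for Mrpl54, 0.0434 for Mrps12, 0.1 for Mrps21 and -0.000676 for Mrps26. With the replicate block and that offset they were 0.0242 for Mrpl12, 0.0608 for Mrpl34, -0.0198 for Mrpl45, 0.0334 for Mrpl54, -0.0468 for Mrps10, 0.0263 for Mrps12, 0.0186 for Mrps21 and -0.0411 for Mrps26. Leaving out single libraries gave -0.0457 to 0.139 for Mrpl10, -0.0786 to 0.104 for Mrpl12, -0.0395 to 0.0856 for Mrpl2, -0.115 to 0.0404 for Mrpl34, -0.0398 to 0.137 for Mrpl45, -0.251 to 0.0576 for Mrpl54, -0.125 to 0.0441 for Mrpl58, -0.0156 to 0.109 for Mrps10, -0.16 to 0.0712 for Mrps12, -0.0325 to 0.161 for Mrps18a, -0.00549 to 0.165 for Mrps18c, -0.0946 to 0.12 for Mrps21, -0.0727 to 0.204 for Mrps26 and -0.0893 to 0.048 for Mrps30. The cause of these turns was not tested. Without a DMXAA library, the lone one left is assumed to vary like the vehicle libraries. Each gene had at least 1318 counts over the 5 libraries, and the 95% intervals reach from -0.60 to 0.70.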
